A study of Rattus norvegicus with 20 samples.

Results

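The comparison is the 2 by 2 design of a study of INS-1 cells, insulin-secreting cells from a rat insulinoma that stand in for beta cells. It asks where the response to islet amyloid polypeptide (IAPP) and C4b-binding protein (C4BP) given together is the sum of the responses to each agent, and where it saturates or cancels. All 20 of the 20 arrays of the series belong to it, 5 in each of 4 groups, and 18166 genes were tested. The groups were taken from the array titles. Wells titled C4BP are read as 77 uM IAPP with 0.6 uM C4BP (IAPP+C4BP below), wells titled C4BPD as 0.6 uM C4BP without IAPP (C4BP alone), wells titled IAPP as 77 uM IAPP (IAPP alone), and wells titled DMSO as 1% DMSO, the solvent of IAPP. The sample fields also give each agent as 300 ug/ml. All wells held INS-1 cells that had been carried as 5 clones over 10 passages, and RNA was extracted 10 h into the challenge. Each array is a separate sample, but the labels do not tie the title number to a clone, so the p-values measure the spread between these samples. Whether the wells with C4BP alone also received DMSO is not stated, and an effect of the solvent cannot be told apart there.

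The reading of the titles matters for every sign. A separate treatment field gave the condition of the title in 3 of 20 arrays, and among the 10 titled IAPP or DMSO in 2. With the groups taken from that field, limma called 0 genes for the interaction, 0 for IAPP and 0 for C4BP. With the titles C4BP and C4BPD exchanged, the interaction would become the sum of the IAPP differences with and without C4BP, with its sign turned, so the interaction below holds only for the reading stated.

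IAPP, or amylin, is a beta-cell hormone that forms amyloid in islets, and C4BP is a plasma inhibitor of complement. Several genes below belong to the integrated stress response. In that pathway kinases that sense misfolded protein, amino acid shortage or other stress phosphorylate the translation factor eIF2, general protein synthesis slows, and the transcription factor ATF4 is made. ATF4 raises genes for amino acid transport, amino acid synthesis, tRNA charging and the stress regulators Trib3, Chac1 and Ddit3. In beta cells, whose insulin synthesis loads the endoplasmic reticulum (ER), the pathway is known as an arm of the ER stress response.

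The interaction of a gene is its IAPP difference with C4BP present (IAPP+C4BP minus C4BP alone) minus its IAPP difference without C4BP (IAPP alone minus DMSO), in log2 units. A value of 0 means that the 2 single folds multiply, and a negative value means that the level with both agents lay below that product. At an adjusted p under 0.05, 9 of 18166 genes (0.0495%) had an interaction, and 0 were above the product: Chac1, Slc1a4, Cars1, Iars1, Trib3, Stap2, Wipi1, Klf6 and Plppr1. Their interactions ran from -0.997 to -0.34. In all 9 genes, 5 of 5 arrays with both agents lay below the product predicted from the other 3 groups. The genes were called from these same arrays, so this count is a description and not further support. At an unadjusted p under 0.05, 688 genes (3.79%) passed, 325 lower and 363 higher. With no interaction in any gene a share of about 0.05 would pass, so the 688 are no excess. The median standard error of an interaction was 0.089 log2 units. Other settings ended calls: limma called 0 interactions when all probe sets were tested (1405 at an unadjusted p under 0.05), and 0 to 1 when all arrays of 1 number were left out (524 to 816 unadjusted). Median-centring the arrays ended the calls of Cars1, Iars1, Wipi1 and Plppr1, and quantile normalization those of Klf6 and Plppr1. More calls came with array weights (12), dim genes left out (13) and an intensity trend with a robust prior (14). The title number as a block gave 18. Leaving out 1 array gave between 3 and 10 calls. The count was 3 without C4BP 3 or C4BPD 5, 4 without C4BP 4, C4BPD 2, C4BPD 3, DMSO 2, IAPP 2 or IAPP 3, and 5 without C4BPD 4 or DMSO 1, where each array is named by its title word and number.

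The 9 called genes, with the probe set that represents each, are Chac1 (17765084), Slc1a4 (17696492), Cars1 (17638715), Iars1 (17718501), Trib3 (17778298), Stap2 (17868011), Wipi1 (17652313), Klf6 (17720472) and Plppr1 (17798808). In the RefSeq annotation of build GRCr8, Cars1 lies on chromosome 1, Stap2 on chromosome 9, Wipi1 on chromosome 10, Klf6 on chromosome 17 and Plppr1 on chromosome 5. The 250 bases before each RefSeq start were searched on both strands for TGATGNAA, the core of the C/EBP-ATF response element that ATF4 binds with C/EBP partners, which reads TTNCATCA on the other strand. It was present at 4 of the 9 genes (Chac1, Slc1a4, Iars1 and Trib3). Of the promoters of genes tested, 417 of 16050 (2.60%) held it, and of all promoters searched 1139 of 33469 (3.40%). The 4 stretches of 120 bases that hold it are shown because these genes carry the result, each 5′ to 3′ on the strand of the gene, with the match in capitals. The Chac1 stretch is chr3:126795908-126796027 on the plus strand, that of Slc1a4 chr14:98761693-98761812, that of Iars1 chr17:15193653-15193772 and that of Trib3 chr3:161275534-161275653, these last on the minus strand.
Chac1: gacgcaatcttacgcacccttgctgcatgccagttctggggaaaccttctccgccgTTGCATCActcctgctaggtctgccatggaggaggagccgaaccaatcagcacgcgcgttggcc
Slc1a4: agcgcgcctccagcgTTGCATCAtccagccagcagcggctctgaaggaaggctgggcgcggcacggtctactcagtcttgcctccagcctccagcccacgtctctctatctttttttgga
Iars1: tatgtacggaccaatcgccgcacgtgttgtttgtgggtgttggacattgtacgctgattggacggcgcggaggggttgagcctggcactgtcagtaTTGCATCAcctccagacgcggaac
Trib3: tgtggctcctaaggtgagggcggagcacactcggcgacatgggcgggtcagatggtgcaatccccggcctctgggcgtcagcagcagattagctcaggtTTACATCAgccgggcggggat
A match describes these letters only, and no binding was measured.

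Chac1, which degrades glutathione, is raised by ATF4 and showed the smallest interaction p. Its intensities, in the order of array numbers 1 to 5, were 773, 802, 811, 804 and 805 in IAPP+C4BP wells, 931, 654, 780, 678 and 763 in C4BP alone, 710, 656, 596, 682 and 730 in IAPP alone, against 360, 398, 366, 331 and 292 in DMSO. The DMSO wells lay below every treated well, and the wells with C4BP alone overlapped both other treated groups. IAPP raised Chac1 by 0.95 log2 units without C4BP (limma, adjusted p = 7.96e-07), whereas the same difference with C4BP present was 0.08 (adjusted p = 0.735). C4BP without IAPP raised it by 1.12. The DMSO level multiplied by both single folds gave an intensity of 1462, the product used below, and the level with both agents was 54.6% of it. The interaction was -0.87 (95% interval -1.12 to -0.62, adjusted p = 0.00949).

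Trib3, a pseudokinase induced by ATF4, had the largest interaction of all genes in size. Its intensities were 664, 581, 573, 606 and 610 in IAPP+C4BP, 556, 464, 520, 421 and 447 in C4BP alone, 597, 636, 511, 899 and 662 in IAPP alone, against 312, 209, 263, 256 and 256 in DMSO. The DMSO wells lay below every treated well, and the wells with both agents lay within the range of IAPP alone. Trib3 averaged 607 ± 35.6 in IAPP+C4BP, 482 ± 55.1 in C4BP alone, 661 ± 145 in IAPP alone and 259 ± 36.5 in DMSO (SD, n = 5 each). The interaction was -0.997 (95% interval -1.34 to -0.65, limma, adjusted p = 0.0221), and the level with both agents was 50.1% of the product of 1210. In intensity units, where a sum replaces the product, the interaction of Trib3 did not pass (adjusted p = 0.277).

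Slc1a4, which carries alanine, serine and cysteine into cells, had 1604, 1576, 1470, 1331 and 1494 in IAPP+C4BP, 1572, 1281, 1442, 1273 and 1372 in C4BP alone, 1410, 1285, 1269, 1312 and 1350 in IAPP alone, against 865, 714, 821, 770 and 858 in DMSO. Again the DMSO wells stood below all others, while the treated groups overlapped. Each agent alone raised it, IAPP by 0.72 and C4BP by 0.78 log2 units. With the other agent present the differences were 0.11 for IAPP and 0.17 for C4BP, neither past the threshold (limma, adjusted p = 0.495 and 0.398). The interaction was -0.61 (95% interval -0.80 to -0.42, adjusted p = 0.0118).

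Cars1 and Iars1 charge the cysteine and isoleucine tRNAs in the cytosol. Cars1 had 1363, 1206, 1369, 1342 and 1330 in IAPP+C4BP, 1436, 1227, 1367, 1238 and 1274 in C4BP alone, 1286, 1214, 1270, 1242 and 1273 in IAPP alone, against 892, 890, 987, 890 and 902 in DMSO. Iars1 had 2969, 3062, 2881, 2733 and 2995 in IAPP+C4BP, 2853, 2847, 2844, 2657 and 2906 in C4BP alone, 3000, 3108, 2952, 2881 and 2931 in IAPP alone, against 2298, 2268, 2132, 2203 and 2396 in DMSO. In both genes every treated well exceeded every DMSO well, and the treated groups overlapped. The interaction of Cars1 was -0.45 (95% interval -0.59 to -0.31, limma, adjusted p = 0.0118) and that of Iars1 was -0.34 (-0.46 to -0.23, adjusted p = 0.0221). The level with both agents was 73.3% of the product for Cars1 and 78.8% for Iars1.

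Plppr1, a phospholipid phosphatase-related membrane protein, followed the same pattern, with 1688 ± 94.4 in IAPP+C4BP, 1683 ± 79.6 in C4BP alone, 1720 ± 119 in IAPP alone and 1317 ± 21.6 in DMSO (SD, n = 5 each). Klf6, a zinc-finger transcription factor, had 1814 ± 130 in IAPP+C4BP, 1946 ± 79.96 in C4BP alone, 1995 ± 123 in IAPP alone and 1630 ± 8.78 in DMSO. Both single agents raised Klf6 (IAPP by 0.29, C4BP by 0.25), and the difference of 0.15 between both agents and DMSO did not pass (limma, adjusted p = 0.0831). The interaction was -0.38 (95% interval -0.52 to -0.24, adjusted p = 0.0429) for Plppr1 and -0.39 (-0.54 to -0.25, adjusted p = 0.0381) for Klf6. These 2 calls were lost in 18 and 17 of the 20 fits that left out 1 array.

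Wipi1 departed from that pattern. Wipi1, which binds phosphoinositides in autophagosome formation, had 1347, 1241, 1328, 1255 and 1402 in IAPP+C4BP, 1744, 1908, 1890, 1837 and 1882 in C4BP alone, 1269, 1257, 1354, 1257 and 1439 in IAPP alone, against 1396, 1431, 1464, 1434 and 1446 in DMSO. Here the wells with C4BP alone were the high ones and did not overlap any other group. C4BP raised Wipi1 by 0.37 log2 units without IAPP, and with IAPP present the difference was 0.00 (limma, adjusted p = 1.00). Stap2, a signal-transducing adaptor, had every treated well above every DMSO well, as in the genes before Wipi1, but was dim. It averaged 127 ± 9.59 in IAPP+C4BP, 145 ± 9.30 in C4BP alone, 129 ± 6.95 in IAPP alone and 106 ± 3.97 in DMSO, all below the median probe set of 178, so it was not shown to be above background. The interaction was -0.37 (95% interval -0.50 to -0.24, adjusted p = 0.0229) for Wipi1 and -0.46 (-0.63 to -0.30, adjusted p = 0.0221) for Stap2.

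**Figure D1:**
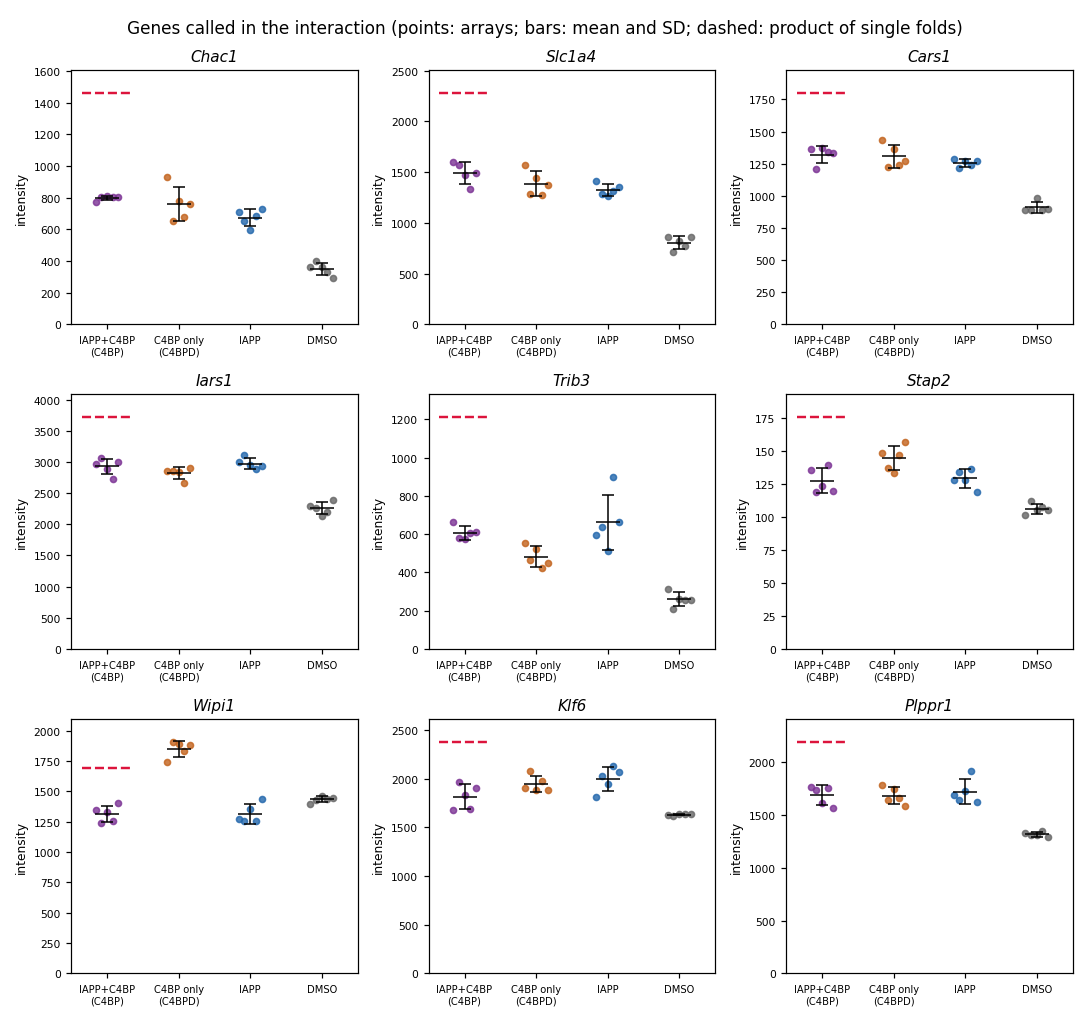
Intensity (linear axis from 0) of the 9 genes with a called interaction, 1 panel a gene. Points are arrays, bars are the mean and SD (n = 5 a group), and the dashed line over IAPP+C4BP is the DMSO level multiplied by both single folds. All 5 points with both agents lie under that line in each panel, and in 8 panels other than Wipi1 DMSO is the lowest group. The genes were called from these same arrays.

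Next in order of p and just outside the threshold came Mt1f, Aars1, Psat1 and Mt1. With the title number as a block Mt1f, Aars1 and Psat1 passed, and Mt1 did not. Aars1 charges the alanine tRNA and Psat1 acts in serine synthesis. Psat1 had 6716 ± 152 in IAPP+C4BP, 6533 ± 323 in C4BP alone, 6206 ± 110 in IAPP alone and 4924 ± 261 in DMSO (SD, n = 5 each), an interaction of -0.29 (limma, adjusted p = 0.0669). Aars1 had 2940 ± 66.8 in IAPP+C4BP, 2728 ± 77.5 in C4BP alone, 2873 ± 90.1 in IAPP alone and 2234 ± 67.7 in DMSO, and an interaction of -0.25 (adjusted p = 0.0669). Both had all treated arrays above all DMSO arrays.

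The metallothioneins Mt1 and Mt1f bind zinc and copper and are induced by metals and oxidants. Unlike the genes above they stayed higher with both agents than with either alone in every array. Mt1 had 8387, 9647, 9113, 9684 and 9710 in IAPP+C4BP, 5538, 5384, 5976, 5422 and 5565 in C4BP alone, 6759, 6805, 6725, 6995 and 7635 in IAPP alone, against 1957, 2577, 3051, 3159 and 2041 in DMSO. The 4 groups did not overlap. The interaction was -0.74 for Mt1 (limma, adjusted p = 0.0669) and -0.58 for Mt1f (adjusted p = 0.0536), and the levels with both agents were 59.9% and 66.7% of the product. In intensity units, where a sum replaces the product, the interaction was -111 (SE 157) for Mt1f and -696 (SE 370) for Mt1 (limma, adjusted p = 1.00 for both), so for Mt1f the single rises summed to the combined level within the SE. The product for Mt1, 15503, lies near the highest intensity in the whole table, 18574, and a ceiling of the array was not tested. Mt1 and Mt1f are close relatives, and shared signal between their probes was not tested. Slc30a1, a zinc exporter, had 747 ± 107 in IAPP+C4BP, 723 ± 48.3 in C4BP alone, 696 ± 19.2 in IAPP alone and 457 ± 70.2 in DMSO (interaction -0.58, limma, adjusted p = 0.245). Of the 7 measured genes in the list of metallothioneins and zinc export, only these 3 had an interaction below 0 (45.5% of all genes). The list's median was 0.01, with 0 calls. On average IAPP raised 3 of the 7 (3.11% of all genes rose) and C4BP raised 3 (2.53%).

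Across a list of 25 measured ATF4 targets and integrated stress response genes, 3 had a called interaction (Chac1, Slc1a4 and Trib3), against 0.0495% of all genes. At an unadjusted p under 0.05, 13 were lower, these 3 included, and 0 were higher, against 325 and 363 of 18166 genes. The interaction was below 0 in 21 of 25 (84.0%), against 8258 of 18166 genes (45.5%), and the list's median was -0.18 against 0.01 for all genes. The median IAPP difference of the list was 0.04 with C4BP present and 0.22 without it, and the median C4BP difference was 0.03 with IAPP present and 0.14 without it. On average over the other agent, IAPP raised 13 of the 25 (3.11% of all genes rose) and C4BP raised 9 (2.53% of all genes rose), and 0 fell in either. Atf4 itself averaged 4286 ± 190 in IAPP+C4BP, 4288 ± 243 in C4BP alone, 4270 ± 275 in IAPP alone and 3491 ± 221 in DMSO (SD, n = 5 each). Its interaction of -0.29 did not pass in the main fit (limma, adjusted p = 0.470). It passed with the title number as a block (limma, adjusted p = 0.00311), but whether the numbers pair the samples was not settled. Nupr1, a stress-induced chromatin protein, and Ddit3, the transcription factor CHOP, had their highest mean in IAPP alone, as Trib3 did: Ddit3 had 740 ± 44.4 in IAPP+C4BP, 664 ± 61.3 in C4BP alone, 909 ± 98.1 in IAPP alone and 660 ± 60.2 in DMSO. The list was chosen with earlier results of these arrays known, so its direction is not independent evidence.

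Lists chosen after the interactions had been seen separate the cytosolic tRNA synthetases and the transporters. Of 20 cytosolic aminoacyl-tRNA synthetases, 2 were called (Cars1 and Iars1), against 0.0495% of all genes. At an unadjusted p under 0.05, 7 were lower, these 2 included, and 0 higher, against 325 and 363 of 18166 genes. Cars1, Iars1 and Slc1a4 were known when these lists were chosen, so their presence is no finding. Of 15 mitochondrial synthetases 0 were called, and 0 were lower and 1 higher at the unadjusted p. Their median interactions were -0.03 and 0.01. Among 30 plasma membrane amino acid transporters, Slc1a4 was called. At the unadjusted p 5 were lower, Slc1a4 included, and 1 higher, against the same shares of all genes. Slc7a1, which carries arginine and lysine, had 2389 ± 156 in IAPP+C4BP, 2172 ± 87.1 in C4BP alone, 2274 ± 71.6 in IAPP alone and 1654 ± 101 in DMSO (interaction -0.33, limma, adjusted p = 0.162).

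**Figure D2:**
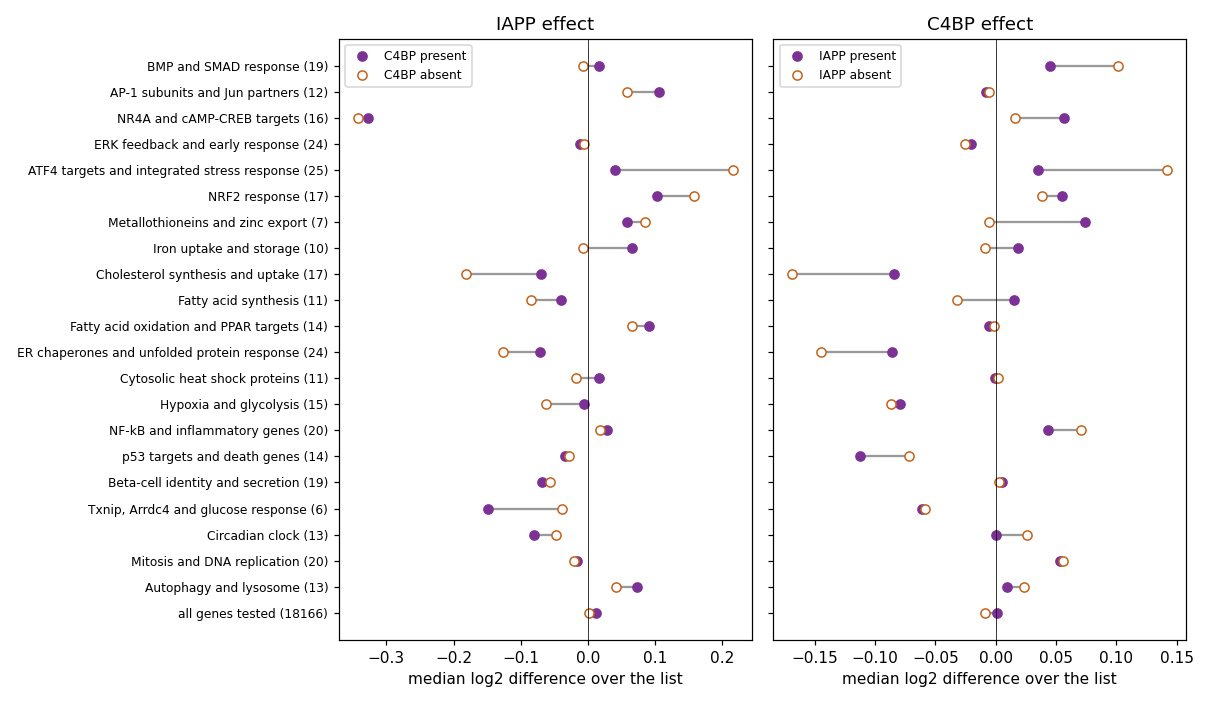
Median log2 difference over the measured members of each list (number in brackets), for IAPP (left) and C4BP (right), with the other agent present (filled) and absent (open). In the ATF4 list the filled points lie at 0.04 and 0.03 and the open points at 0.22 and 0.14, and in the cholesterol list the filled points lie nearer 0 than the open ones.

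Genes that responded to both agents were sorted by their average effects, each averaged over the presence and absence of the other agent. In this balanced design the estimates of these averages are orthogonal to the interaction, so choosing genes by them does not choose a large or small interaction estimate. The calls and the intervals share each gene's estimate of the spread, so the chosen genes tend to have narrow intervals. The classes below also use the effect with the other agent present, which is not orthogonal to the interaction. Counted for each agent with the other present and without it, IAPP changed 431 genes with C4BP (2.37%) and 614 without it (3.38%), and C4BP changed 110 genes with IAPP (0.606%) and 351 without it (1.93%), while both agents together changed 1082 against DMSO (5.96%). These counts were not tested against each other, and comparisons that use the same wells are not independent. IAPP changed 1377 genes on average (7.58%, 565 higher and 812 lower) and C4BP changed 738 (4.06%, 460 higher and 278 lower). A total of 266 genes changed in both. The same direction held for 159 of them, 69 higher and 90 lower, and opposite directions for 107, of which 94 were lower with IAPP and higher with C4BP. Unadjusted 95% intervals of the same fit were used to sort them.

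Among the 159 that moved the same way, 88 were classed as adding up. In these the interval of the interaction covered 0, and that of the smaller effect with the other agent present excluded 0. Of these 32 rose and 56 fell, and the median size of their difference between both agents and DMSO was 0.38 log2 units. The median half-width of the interaction's interval was 0.14, so departures smaller than this would not be seen. The median average effects of the 88 genes were 0.18 for IAPP and 0.19 for C4BP in size, so a departure of most of the effect could be missed. In 56 of the 88 the interaction leaned towards a smaller response than the product. In 6 genes the response saturated, with a called interaction and a smaller effect whose interval covered 0 in the presence of the other agent. All 6 rose: Chac1, Trib3, Slc1a4, Cars1, Iars1 and Plppr1. A further 29 could not be resolved, as both intervals covered 0. All 29 leaned towards a smaller response than the product. The rule of this class forces that lean, so it is no finding. In 36 the interval excluded 0 without a call, 32 of them towards a smaller response than the product.

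**Figure D3:**
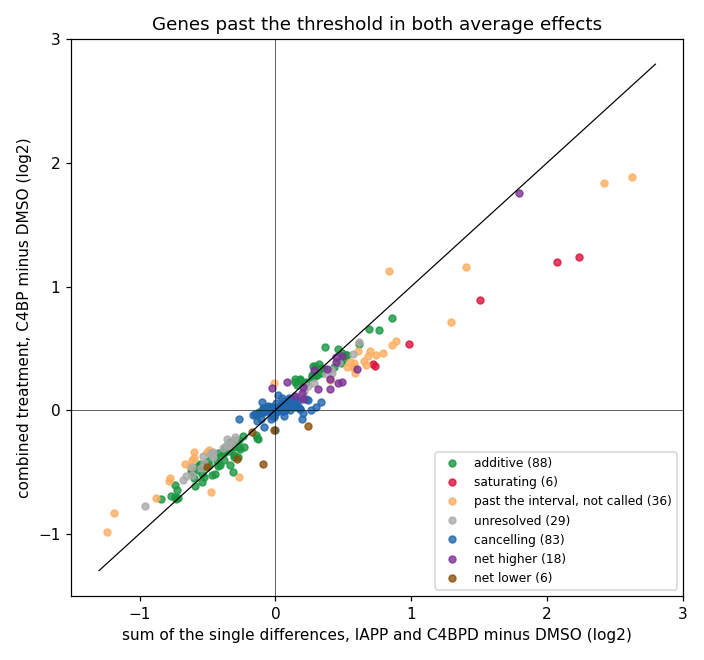
Observed difference of IAPP+C4BP minus DMSO against the sum of the 2 single differences (both log2 units) for genes called in both average effects. Points on the diagonal add up. Saturating genes lie below it on the right. Cancelling genes lie near 0 on the vertical axis, as the rule of their class requires.

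Genes of the NRF2 response, which protects cells against oxidants and electrophiles, were among those that added up. Nqo1, a quinone reductase, had 1276 ± 106 in IAPP+C4BP, 1105 ± 65.3 in C4BP alone, 956 ± 78.6 in IAPP alone and 810 ± 69.2 in DMSO (SD, n = 5 each). IAPP differences in Nqo1 were 0.20 with C4BP and 0.24 without it, and the interaction was -0.03 (95% interval -0.24 to 0.17). Gclc and Gclm, the subunits of the enzyme that limits glutathione synthesis, and Txnrd1, which reduces thioredoxin, had interactions of 0.04 (-0.14 to 0.21), 0.00 (-0.11 to 0.10) and -0.01 (-0.13 to 0.10). Of 17 members measured, IAPP raised 10 on average (3.11% of all genes rose), C4BP raised 6 (2.53%), and 0 had a called interaction. The median interaction of the list was -0.01.

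Hmox1, the inducible heme-degrading enzyme of the same list, leaned the other way. It had 585, 541, 462, 577 and 501 in IAPP+C4BP, 253, 267, 246, 251 and 282 in C4BP alone, 391, 445, 353, 441 and 421 in IAPP alone, against 238, 240, 237, 252 and 251 in DMSO. The wells with both agents lay above all others. C4BP gave a difference of 0.38 in the presence of IAPP (limma, adjusted p = 0.00734) and 0.09 without it (adjusted p = 0.648). The interaction of 0.29 (95% interval 0.09 to 0.48) did not pass over all genes (adjusted p = 1.00).

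Genes of sterol synthesis fell with both agents in 14 of 17 measured and ER chaperone and unfolded protein response genes in 14 of 24 (3.23% of all genes fell with both agents against DMSO), and their interactions leaned above 0, which for a lowered gene is a smaller combined fall than the product. In all 17 measured genes of cholesterol synthesis and uptake the interaction was above 0, with a median of 0.10 and 0 calls. Over all genes 45.5% had an interaction below 0. Members of a list share the same wells, so they are not separate observations. On average IAPP lowered 11 of them (4.47% of all genes fell) and C4BP lowered 7 (1.53% of all genes fell). Msmo1 and Mvd, enzymes of sterol synthesis, were classed as adding up. Msmo1 had 3448 ± 132 in IAPP+C4BP, 3878 ± 114 in C4BP alone, 3942 ± 180 in IAPP alone and 4706 ± 236 in DMSO (SD, n = 5 each), an interaction of 0.09 (95% interval -0.04 to 0.21). For Mvd the interaction was 0.13, and its 95% interval only just covered 0 (-0.005 to 0.26). The IAPP difference of Mvd was -0.10 with C4BP and -0.23 without it, so a smaller combined fall could be missed. Insig1, which retains the sterol sensor in the ER, had 1481, 1774, 1603, 1676 and 1573 in IAPP+C4BP, 1581, 1658, 1713, 1676 and 1712 in C4BP alone, 1495, 1681, 1736, 1736 and 1704 in IAPP alone, against 1799, 2080, 2075, 2109 and 2225 in DMSO. Every treated well lay below every DMSO well, and the treated groups overlapped. Its interaction of 0.26 (95% interval 0.09 to 0.43) did not pass (limma, adjusted p = 0.944).

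In the ER chaperone and unfolded protein response list, 20 of 24 measured members had an interaction above 0, with a median of 0.05 and 0 calls. The share below 0 was 16.7% in the list and 45.5% over all genes. IAPP lowered 11 (4.47% of all genes fell) and C4BP lowered 11 (1.53%) on average. Hspa5, the main chaperone of the ER, added up, with 11534 ± 231 in IAPP+C4BP, 12142 ± 274 in C4BP alone, 12461 ± 163 in IAPP alone and 13372 ± 337 in DMSO (interaction 0.03, 95% interval -0.06 to 0.12). Creld2, an ER stress-inducible protein, had 1374 ± 83.0 in IAPP+C4BP, 1557 ± 116 in C4BP alone, 1560 ± 81.4 in IAPP alone and 2051 ± 226 in DMSO (interaction 0.21, 95% interval 0.01 to 0.41).

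Among the 107 genes with opposite directions, 83 cancelled, meaning that the interval of both agents against DMSO covered 0, 18 stayed higher and 6 stayed lower. The median size of the difference between both agents and DMSO was 0.03 in the cancelling genes. The rule of the class keeps this difference small, so it is no measure of how fully the effects cancel. Calb1, the calcium buffer calbindin, had the largest smaller average effect of these genes, by which it was chosen. It had 1131, 949, 1157, 1060 and 982 in IAPP+C4BP, 1699, 1544, 1940, 1601 and 1649 in C4BP alone, 874, 705, 843, 707 and 703 in IAPP alone, against 1037, 907, 1116, 1061 and 937 in DMSO. C4BP alone lay above all other wells and IAPP alone below them, and the wells with both agents overlapped DMSO. C4BP raised Calb1 by 0.74 and IAPP lowered it by 0.40 without the other agent, and both together differed from DMSO by 0.06 (limma, adjusted p = 0.828). Bmp3, a member of the bone morphogenetic protein family, cancelled in the other sense, with 1442 ± 73.1 in IAPP+C4BP, 994 ± 78.5 in C4BP alone, 1794 ± 106 in IAPP alone and 1329 ± 133 in DMSO. Brs3, an orphan bombesin-like receptor, had 633 ± 41.2 in IAPP+C4BP, 755 ± 50.6 in C4BP alone, 456 ± 32.5 in IAPP alone and 606 ± 21.2 in DMSO. A cancelling gene is still additive where its interaction interval covers 0, as it did for Bmp3 (-0.09 to 0.30) and Brs3 (-0.01 to 0.33), while that of Calb1 (-0.51 to -0.04) did not.

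The largest responses to C4BP, those of Id1 and Id3, had interactions near 0. C4BP raised Id1, an inhibitor of helix-loop-helix factors and a target of BMP signalling, by 1.89 log2 units with IAPP present and 1.92 without it, and the interaction was -0.03 (95% interval -0.20 to 0.14). Id1 had 2202, 2290, 2224, 2372 and 2173 in IAPP+C4BP, 2460, 2634, 2407, 2396 and 2727 in C4BP alone, 564, 602, 634, 666 and 575 in IAPP alone, against 595, 671, 721, 633 and 713 in DMSO. The wells with and without C4BP did not overlap. Id3, of the same family, rose by 2.25 with IAPP and 2.24 without it, with an interaction of 0.00 (95% interval -0.37 to 0.37). In the BMP and SMAD list C4BP raised 8 of 19 on average (2.53% of all genes rose), and Acvr1c, Bambi, Id1, Id4 and Smad9 stayed higher with both agents although IAPP lowered them on average. The IAPP difference of Bambi, a decoy receptor of the pathway, was -0.28 with C4BP present and -0.02 without it. Smad7, which inhibits the pathway, departed with 131 ± 6.11 in IAPP+C4BP, 169 ± 16.7 in C4BP alone, 105 ± 5.69 in IAPP alone and 99.6 ± 9.11 in DMSO (interaction -0.44, limma, adjusted p = 0.154), levels below the median probe set and not shown to be above background.

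IAPP lowered 13 of 16 NR4A and cAMP-CREB targets on average (4.47% of all genes fell), with a median difference of -0.33 with C4BP present and -0.34 without it. Nr4a1, an immediate early nuclear receptor, had 854, 573, 725, 599 and 691 in IAPP+C4BP, 1641, 1279, 1337, 1225 and 1388 in C4BP alone, 751, 568, 664, 579 and 710 in IAPP alone, against 1374, 1146, 1108, 1210 and 1033 in DMSO. The wells with and without IAPP did not overlap, and the interaction was -0.16 (95% interval -0.47 to 0.16). Dio2, the enzyme that activates thyroid hormone, and Nr4a2 stayed lower with both agents although C4BP raised them on average.

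**Figure D4:**
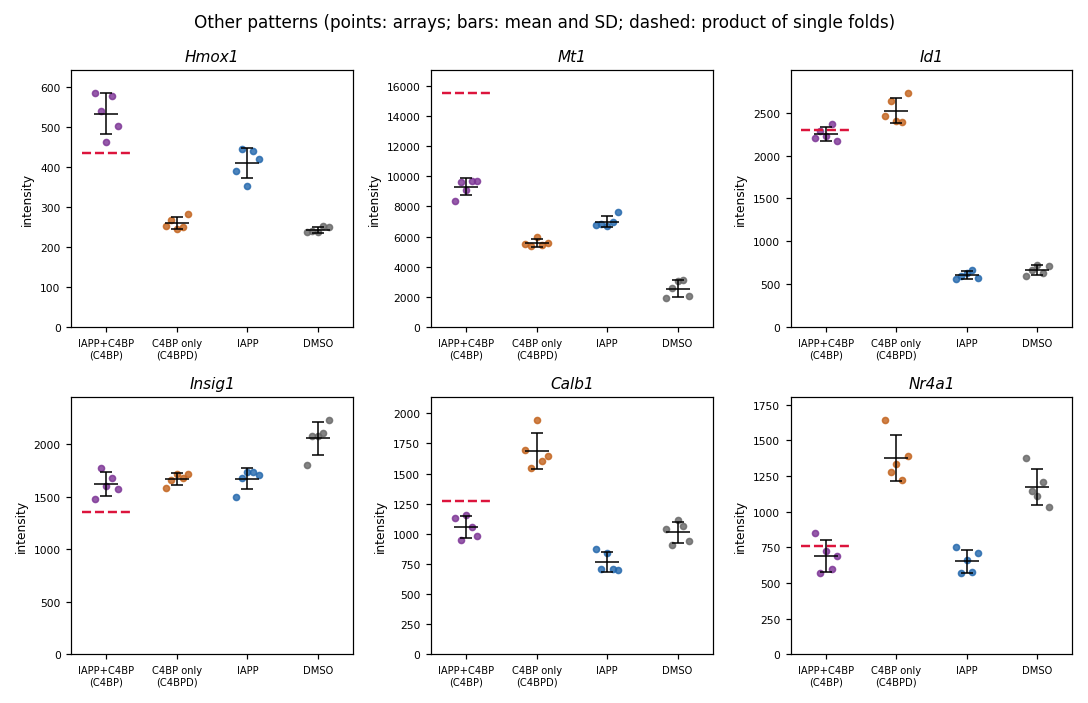
Intensity (linear axis from 0) of 6 genes with other patterns. Points are arrays, bars the mean and SD (n = 5 a group), and the dashed line the DMSO level multiplied by both single folds. Hmox1 and Insig1 lie above the line, Mt1 and Calb1 below it, Id1 and Nr4a1 near it.

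The large rises with IAPP leaned smaller with C4BP present. Of the 15 genes that IAPP raised by at least 0.5 log2 units on average, 12 had a smaller difference with C4BP, with medians of 0.52 with it and 0.75 without it. Jun, a subunit of AP-1, had 756 ± 72.0 in IAPP+C4BP, 378 ± 24.5 in C4BP alone, 965 ± 183 in IAPP alone and 328 ± 43.9 in DMSO (SD, n = 5 each). Its interaction of -0.55 did not pass (limma, adjusted p = 0.530). The repressor Atf3 had 310, 337, 314, 347 and 357 in IAPP+C4BP, 300, 247, 240, 230 and 271 in C4BP alone, 450, 617, 365, 764 and 545 in IAPP alone, against 230, 257, 262, 273 and 227 in DMSO. IAPP alone stood above all others and varied most between wells, and the interaction was -0.72 (95% interval -1.11 to -0.33, adjusted p = 0.470). For the 27 genes lowered by at least 0.5 the medians were 0.62 with C4BP and 0.57 without it, and 13 of 27 were smaller with C4BP. Of the 85 genes with an average C4BP effect of at least 0.3 in size, 70 (82.4%) had a smaller difference with IAPP present, with medians of 0.32 with it and 0.44 without it. Over all genes that IAPP changed, 791 of 1377 (57.4%) were smaller with C4BP, and over those that C4BP changed, 504 of 738 (68.3%) were smaller with IAPP. These shares are descriptions with no test.

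**Figure D5:**
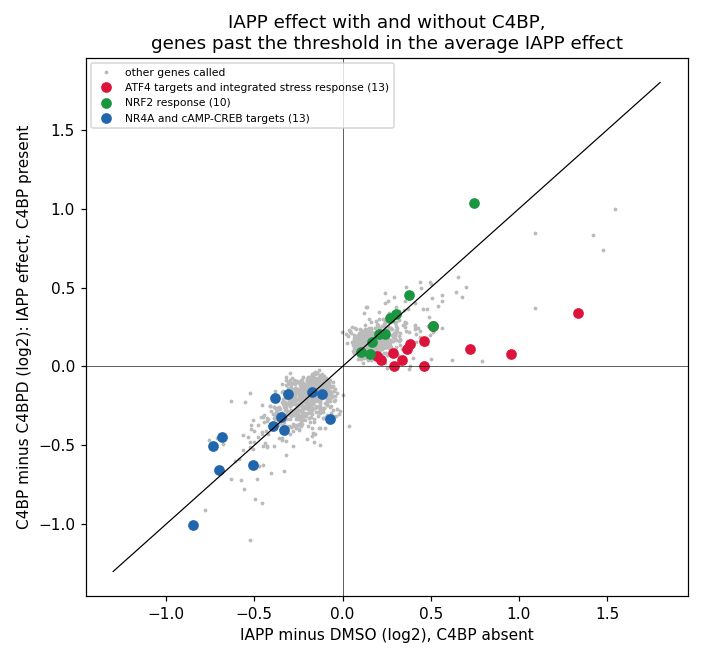
IAPP difference with C4BP (IAPP+C4BP minus C4BP alone, vertical) against that without C4BP (IAPP alone minus DMSO, horizontal), both in log2 units, for the 1377 genes called in the average IAPP effect. Coloured points are members of 3 lists, and the line marks equal differences: the 13 ATF4 targets lie below it, and the 13 NR4A and cAMP-CREB targets spread along it.

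Tfrc, the transferrin receptor that takes up iron, and Cpt1a, which brings fatty acids into mitochondria, responded to both agents with departures that did not pass. Tfrc had 3706 ± 109 in IAPP+C4BP, 4432 ± 156 in C4BP alone, 5598 ± 106 in IAPP alone and 5879 ± 171 in DMSO (SD, n = 5 each). Its interaction of -0.19 (95% interval -0.29 to -0.09, limma, adjusted p = 0.470) means a larger fall with both agents than the product. Cpt1a had 2588 ± 65.8 in IAPP+C4BP, 1445 ± 98.1 in C4BP alone, 2476 ± 37.5 in IAPP alone and 1165 ± 112 in DMSO, an interaction of -0.25 (adjusted p = 0.963).

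The cells carried beta-cell markers in every group. All 7 measured beta-cell markers lay above the median probe set, and their summed intensity was 43011 to 46524 in IAPP+C4BP, 45558 to 49766 in C4BP alone, 43316 to 45807 in IAPP alone and 45670 to 49217 in DMSO. On average IAPP lowered 2 of the 7 beta-cell markers and 1 of 6 markers of other islet cells (4.47% of all genes fell). It raised 0 of either, and C4BP changed 0 of either. Ins1, Ins2 and Iapp had interactions of -0.02, 0.05 and -0.01 that did not pass. Ins1 and Ins2 were dimmer than the glucagon gene Gcg in every array, and whether probe sets of different genes compare was not tested. Of the other islet markers 2 of 6 lay above the median probe set, Gcg among them with 9984 ± 231 in IAPP+C4BP, 10135 ± 181 in C4BP alone, 9400 ± 166 in IAPP alone and 10304 ± 285 in DMSO. Above it lay 1 of 7 acinar and duct markers and 3 of 11 markers of fibroblasts, endothelium and blood cells, and their part in the results was not tested. In bulk RNA fewer cells of a type and less RNA per cell cannot be told apart. Array medians ran from 170.0 to 182.4, and the number of arrays limits the precision.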

How the data were processed

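Total RNA of 20 INS-1 wells was hybridised to Affymetrix Rat Gene 2.0 arrays. The authors deposited 1 intensity per probe set and array, normalized and summarized with Affymetrix Expression Console, per the submitters' processing notes. For the algorithm and build, nothing is stated in the sources used here, and the linear scale was read from the values (4.73 to 18574). Of 36685 probe sets, 190 of them controls, 18511 had 1 symbol in the platform annotation, 575 several and 17599 none or no entry there. The 190 controls were left out of the fit over all probe sets. The brightest probe set stood for each of the 291 genes that had several, giving 18166 genes.

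The log2 of each intensity was fitted with 4 group means in limma 3.58.1 (R 4.3.3, lmFit and eBayes), with no filter and no further normalization. Tests were two-sided, with Benjamini-Hochberg adjustment over all genes, calling genes under 0.05. Levels are arithmetic means with SD, and folds divide geometric means. Named genes are those called, those with the smallest interaction p up to 20, 8 with the largest shared effects in each direction class, up to 2 a list, and fixed genes, of which the text gives a selection. Genes, lists and classes were chosen with earlier results of these data known. Of 28 lists, 3 were added after the interactions had been seen, and lists not described had 0 called interactions, except Klf6 among 24 early response genes and Wipi1 among 13 autophagy genes. Promoters came from RefSeq (GRCr8). Alternatives were the replicate block, centring, quantile normalization, array weights, an intensity trend, dim genes left out, all probe sets, the treatment field, the linear scale, wider intervals and left-out arrays. Figures used Python 3.11.15 and matplotlib 3.10.9.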

Additional observations from a re-analysis of the deposited data

Results flagged for a closer look

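The IAPP difference changed with the presence of C4BP by a test of the difference itself in 9 genes, in log2 units Chac1 (-0.87), Slc1a4 (-0.61), Cars1 (-0.45), Iars1 (-0.34), Stap2 (-0.46), Trib3 (-0.997), Wipi1 (-0.37), Klf6 (-0.39) and Plppr1 (-0.38).

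Single arrays stood apart from the other 4 of their group (Dixon's test at 95%) in 10 of 100 groups examined, where chance gives about 1 in 20. Low arrays were Chac1 in IAPP+C4BP 1 (773), Cars1 in IAPP+C4BP 2 (1206), Iars1 in C4BP alone 4 (2657), Psat1 in IAPP+C4BP 1 (6450) and Insig1 in IAPP alone 1 (1495). High arrays were Cars1 in DMSO 3 (987), Aars1 in DMSO 5 (2354), Psat1 in IAPP alone 3 (6395), Psat1 in DMSO 3 (5378) and Smad7 in IAPP alone 1 (115). The interactions of Chac1 and Cars1 kept their calls in all 20 fits that left out 1 array.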

How the results depend on the processing

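The main counts were 9 genes for the interaction, 1377 for the average IAPP effect and 738 for the average C4BP effect. Whether the title numbers pair the samples was not settled. A running prefix in the titles places the arrays of each number next to each other, 1 of each treatment. What this order stands for is not stated. In 1 of 6 group pairs all 5 same-numbered pairs correlated over 0.1, and 20 of 30 pairs did (-0.109 to 0.51). Yet 16 of 20 arrays correlated best, among arrays of the other groups, with one of their own number. With the number as a replicate block the counts were 18, 2252 and 1536. At an unadjusted p under 0.05, 1112 interactions passed with the block and 688 without it. All 9 genes were among the 18, which added Atf4 (adjusted p = 0.00311 with the block, 0.470 without), Stk32a, Psat1, Nupr1, Slc7a1, Mars1, Mt1f, Aars1 and Slc6a9, and the classes held 180 additive, 10 saturating, 67 unresolved, 72 other, 173 cancelling, 36 net higher and 33 net lower genes, 571 in all. An intensity trend with a robust prior gave 14 interactions, leaving out dim genes 13 and array weights 12. Over all probe sets limma called 0 interactions (1405 at an unadjusted p under 0.05, lowest adjusted p 0.0503). With groups from the treatment field the 3 counts were 0, 0 and 0 (929, 505 and 543 unadjusted). Median-centred arrays gave 52 additive, 3 saturating and 19 unresolved genes, and 99% intervals gave 52 additive, 78 unresolved and 23 other. With 1 array left out the counts ran 3 to 10, 1142 to 1459 and 591 to 852, and with all arrays of 1 number left out 0 to 1, 732 to 1306 and 346 to 663. Chac1, Slc1a4 and Cars1 kept their calls in all 20 one-array fits, though Cars1 lost it with median-centred arrays (adjusted p = 0.0573), as did Iars1 (0.0776), Wipi1 (0.0776) and Plppr1 (0.152), and Klf6 (0.0733) and Plppr1 (0.0695) lost it under quantile normalization. In the one-array fits Trib3 lost it in 7, Stap2 in 7, Iars1 in 8, Wipi1 in 9, Klf6 in 17 and Plppr1 in 18. Trib3 also lost it on the linear scale (adjusted p = 0.277), where 10 genes passed, 8 of them shared. The cause of these changes was not tested. Of the single-gene values, 1034 kept their direction and side of the threshold, 27 passed and 117 ceased to pass, and 0 reversed.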
